A study of Homo sapiens with 12 samples.

Results

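The genes described here carry the unfolded protein response and the integrated stress response in 22RV1 and LnCaP cells, 2 established human prostate cancer cell lines. They were taken from a list of 36 named genes, of which 35 had a probe set assigned to 1 gene symbol, among 11963 genes measured in all. DNAJB11 is not analysed here. The 35 genes comprised 14 ER chaperones and folding enzymes, 3 genes of ER-associated degradation, 4 genes for the ER stress sensors and XBP1, ATF4 itself, and 13 targets of ATF4 and CHOP. For a gene with several probe sets, the one with the highest mean over all arrays was used. The groups were LnCaP cells given 100 µM nicotine tartrate for 24 h, untreated LnCaP cells, 22RV1 cells given the same treatment, and untreated 22RV1 cells. Each group had 3 arrays, so 12 arrays were measured. No vehicle is named for the untreated cells, and nothing in the labels says whether the replicates were separate cultures. P-values below refer only to variation among these arrays, and that variation could be technical. Each line is a single established line, and the arrays read the pooled RNA of a culture, so a change in a few cells and a smaller change in all of them cannot be told apart.

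Misfolded protein in the endoplasmic reticulum (ER) is sensed by ATF6, by the kinase and nuclease IRE1 (gene ERN1) and by the kinase PERK (gene EIF2AK3). Activated ATF6 and the spliced form of XBP1 mRNA that IRE1 makes raise the transcription of ER chaperones and of genes that remove misfolded protein. PERK, like the other kinases of the integrated stress response, phosphorylates the translation factor eIF2, which lowers protein synthesis overall while favouring translation of ATF4. ATF4 then turns on genes of amino acid supply and DDIT3, which encodes the factor CHOP. Chaperone genes and ATF4 targets thus report on different branches, and secretory epithelia such as that of the prostate depend on the folding capacity of the ER. The arrays do not measure splicing of XBP1, phosphorylation of eIF2 or translation of ATF4.

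Some promoters of the chaperones and of the ATF4 targets hold different elements, and a few promoters are shown because the comparison of these groups runs through the results. Sequences are from RefSeq (GRCh38.p14), 250 bases before to 50 bases after the annotated start, and 34 of the 35 genes had an entry; PDIA3 was the gene without one. The ER stress response element (ERSE), searched on both strands as CCAAT and CCACG with 9 free letters between them, was found in 5 of 13 chaperone promoters (38.5%), in that of XBP1 and in 0 of 13 promoters of ATF4 and CHOP targets. It occurred in 22 of 27305 promoters of the same length (0.0806%). The matches are printed along the strand of the gene, with the fixed letters in capitals, and read CGTGG to ATTGG where the element lies on the opposite strand.
HSPA5: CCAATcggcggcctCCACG
HSP90B1, first match: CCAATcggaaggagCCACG
HSP90B1, second match: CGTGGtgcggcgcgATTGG
CALR: CGTGGtcgaccatcATTGG
CANX: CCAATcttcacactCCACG
CRELD2: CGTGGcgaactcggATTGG
XBP1: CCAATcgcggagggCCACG

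The 250 bases before the start of HSPA5, which encodes the chaperone BiP, lie at chr9:125241344-125241593 on the minus strand, and those of the chaperone-associated gene CRELD2 at chr22:49918384-49918633 on the plus strand. They are shown whole because HSPA5 is a standard marker of the unfolded protein response and CRELD2 had the smallest adjusted p of the 35 genes for nicotine in LnCaP. The ERSE match ends 48 bases before the start in HSPA5 and 62 bases before it in CRELD2.
HSPA5: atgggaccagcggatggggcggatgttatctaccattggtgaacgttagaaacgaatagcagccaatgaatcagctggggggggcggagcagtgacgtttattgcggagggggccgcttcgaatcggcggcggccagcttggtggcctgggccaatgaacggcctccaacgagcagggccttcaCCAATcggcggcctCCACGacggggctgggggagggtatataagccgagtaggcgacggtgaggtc
CRELD2: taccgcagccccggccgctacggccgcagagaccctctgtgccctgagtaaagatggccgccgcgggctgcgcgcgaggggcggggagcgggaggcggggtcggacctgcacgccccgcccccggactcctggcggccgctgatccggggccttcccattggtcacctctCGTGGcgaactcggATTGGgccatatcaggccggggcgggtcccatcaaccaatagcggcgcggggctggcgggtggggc
The element that ATF4 binds with C/EBP partners, searched on both strands as TGATGNAA, was found in 3 of 13 promoters of ATF4 and CHOP targets (23.1%), those of ASNS, CHAC1 and SLC3A2, and in 1 of the other listed genes, HERPUD1, against 1003 of 27305 promoters (3.67%). In SLC3A2 it lay after the start. The ATF6 and XBP1 element TGACGTGG was found in the listed genes only in the chaperone gene HYOU1, against 217 of all promoters (0.795%). None of these searched elements overlapped another in the listed promoters. The promoter of CHAC1, at chr15:40953221-40953470 on the plus strand, is shown because CHAC1 had the largest log2 fold change of the 35 genes for nicotine in 22RV1. Its match, from 209 to 202 bases before the start, is in capitals except for its free letter.
CHAC1: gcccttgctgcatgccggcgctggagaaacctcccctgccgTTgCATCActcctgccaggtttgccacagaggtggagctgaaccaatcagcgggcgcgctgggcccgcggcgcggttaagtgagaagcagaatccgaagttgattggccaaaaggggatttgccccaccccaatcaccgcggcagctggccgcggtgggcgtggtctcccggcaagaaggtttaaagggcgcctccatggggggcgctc
A match describes these letters only and was not tested as a binding site.

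Values throughout are on the log2 scale, as the authors deposited them. Within groups, arrays correlated at 0.991 or above over all genes, and across lines at 0.923 or below. The epithelial markers KLK3, KLK2, KRT8, KRT18 and EPCAM were above the median probe set (6.66) in every group. KLK3 averaged 12.8 in treated and 13.1 in untreated LnCaP, and 8.58 in treated and 8.96 in untreated 22RV1. Of the 6 markers of leukocytes, monocytes, endothelium and fibroblasts, 5 had group means below the median probe set, and COL1A1 lay between 7.40 and 7.49. None of the 6 was called by limma after nicotine, and the fibroblast gene DCN was called lower in untreated LnCaP than in untreated 22RV1 (log2 fold change -0.43). The androgen-responsive KLK2 had a log2 fold change after nicotine of -0.77 in LnCaP (limma adjusted p = 0.424, and 0.0133 with the block described below) and of -0.60 in 22RV1. On average over both lines that block called 2 of the 5 epithelial markers lower, where limma called 0. It called 3.31% of all genes in either direction. The part of KLK2 in the results was not tested. The arrays numbered 3 held 50.8% of the residual sum of squares of the 35 genes, and 48.0% over all genes. ERN1 and VLDLR had mean values below the median probe set, and no filter on low values was used.

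In LnCaP, nicotine left none of the 35 genes past the threshold, although most chaperones lay slightly higher than in untreated cells. With limma over all genes, 0 of 35 genes had a Benjamini-Hochberg adjusted p under 0.05, where 0.694% of all genes were called. At an unadjusted p under 0.05 there were 8 of 35. Counts at that unadjusted cut, here and below, stand without the share of all genes, so no excess can be read from them. The chaperones had a positive log2 fold change in 13 of 14 genes with a median of 0.14, against 49.6% of all genes with a median of -0.0014. Of the 14 chaperones, 4 (28.6%) were higher on every treated array than on any untreated one, against 7.10% of all genes. Those 4 were CALR, CANX, PDIA3 and CRELD2.

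CRELD2, which encodes an ER-resident protein induced by ER stress, had values of 10.77, 10.66 and 10.59 in nicotine-treated LnCaP, against 10.45, 10.41 and 10.32 in untreated LnCaP. The groups did not overlap. Its log2 fold change was 0.28 ± 0.09 (SE, n = 3 per group), with an adjusted p of 0.165 in limma. CALR, the lectin chaperone calreticulin, had 11.26, 11.29 and 11.37 in treated cells and 11.03, 11.10 and 11.04 in untreated cells. Again no treated array fell within the untreated range, and the log2 fold change was 0.25 ± 0.08 (limma adjusted p = 0.189). PDIA3, a disulfide isomerase that works with calreticulin and calnexin, had 12.21, 12.08 and 12.05 in treated cells, against 12.02, 11.89 and 11.82 in untreated cells, a log2 fold change of 0.21 ± 0.08 (limma adjusted p = 0.328).

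HSPA5 had 12.20, 11.94 and 11.84 in treated LnCaP and 11.52, 11.96 and 11.52 in untreated LnCaP. The untreated array numbered 2 was above 2 of the 3 treated ones, so the groups overlapped. The log2 fold change was 0.33 ± 0.15 (SE), with a 95% interval of 0.01 to 0.64 and a limma adjusted p of 0.394. Among the other chaperones the log2 fold change lay between -0.13 for SDF2L1, a component of ER chaperone complexes, and 0.21 for HSP90B1, the ER form of the HSP90 chaperone.

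A second fit, with a replicate block that compares arrays of the same number as pairs, called 2 of 35 genes in LnCaP, DDIT3 and SEL1L. That is close to the 5.39% of all genes it called, and the log2 fold changes are the same in both fits. DDIT3 had 8.50, 8.63 and 9.23 in treated cells and 8.04, 8.35 and 8.41 in untreated cells. Every treated array was above every untreated one, and the treated array numbered 3 was the highest. The log2 fold change was 0.52 ± 0.17 (SE, limma adjusted p = 0.208), and the fit with the replicate block gave an adjusted p of 0.0245. Its log2 fold change was 0.30 without treated LnCaP replicate 3 (limma adjusted p = 0.380) and 0.37 without the 4 arrays numbered 3. SEL1L, the adaptor of the ubiquitin ligase that clears misfolded ER protein, had 9.85, 9.77 and 9.60 in treated cells and 9.43, 9.55 and 9.15 in untreated cells. Its groups did not overlap either, and its log2 fold change was 0.36 ± 0.13 (limma adjusted p = 0.253, and 0.0330 with the replicate block).

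HERPUD1, an ER membrane protein of the degradation machinery, had 11.24, 10.93 and 11.12 in treated LnCaP, against 10.75, 10.97 and 10.76 in untreated LnCaP. The groups overlapped through the untreated array numbered 2 (log2 fold change 0.27 ± 0.11, limma adjusted p = 0.321). ATF4 had 11.98, 11.98 and 12.12 in treated cells and 11.77, 11.94 and 11.84 in untreated cells, with no overlap (log2 fold change 0.18 ± 0.08, limma adjusted p = 0.373). XBP1 had 9.79, 9.58 and 9.76 in treated cells and 9.62, 9.78 and 9.58 in untreated cells, which overlapped (log2 fold change 0.05 ± 0.09). The sensors EIF2AK3, ATF6 and ERN1 had log2 fold changes of 0.16, 0.11 and 0.07.

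The targets of ATF4 and CHOP other than DDIT3 stayed closer to 0. Their group, DDIT3 included, had a positive log2 fold change in 9 of 13 genes, with a median of 0.07, and 1 of 13 (7.69%) was higher on every treated array, close to the 7.10% of all genes. The median was -0.03 without untreated LnCaP replicate 1 and 0.16 without untreated LnCaP replicate 3. STC2, a secreted glycoprotein, had a log2 fold change of 0.23 and TRIB3, a pseudokinase that CHOP and ATF4 induce, had -0.11. ASNS, PSAT1 and PHGDH, enzymes of asparagine and serine synthesis, lay between -0.01 and 0.03. The 95% interval stayed within a doubling or a halving for all 35 genes, with the highest bound at 0.90 for DDIT3 and the lowest at -0.47 for TRIB3.

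**Figure D1:**
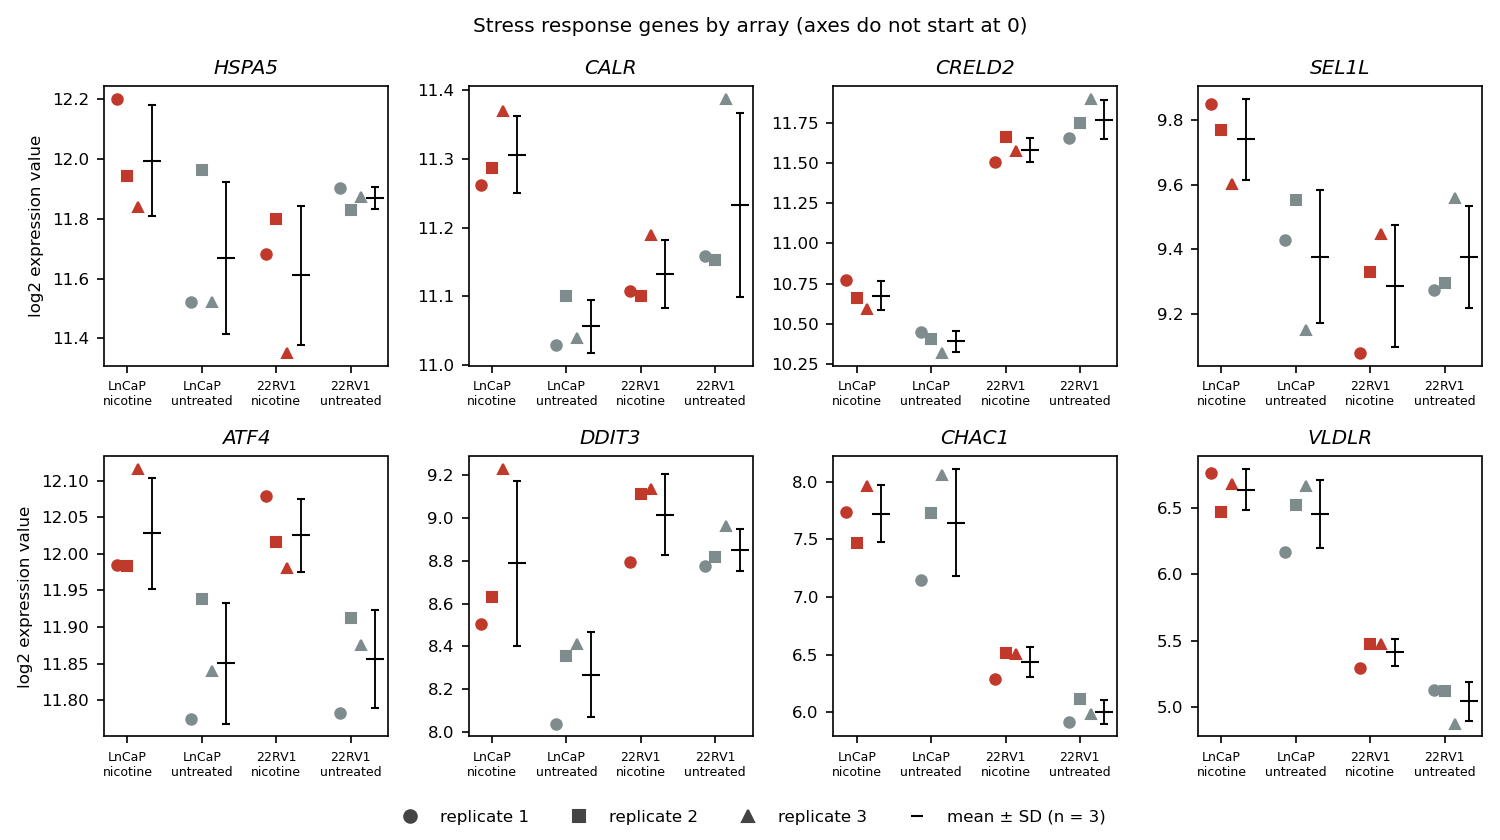
Log2 expression values of 8 stress response genes on each of the 12 arrays, by group, with the mean and SD of 3 arrays beside the points; the marker shape gives the replicate number. In LnCaP the treated arrays of CALR, CRELD2, SEL1L, ATF4 and DDIT3 lie above the untreated ones, and in 22RV1 the treated arrays of ATF4, CHAC1 and VLDLR do.

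In 22RV1, nicotine again left 0 of 35 genes past the threshold (0% of all genes were called by limma), and 6 of 35 had an unadjusted p under 0.05. The chaperones here had a negative log2 fold change in 13 of 14 genes, with a median of -0.16, against a positive one in 47.7% of all genes and a median of -0.0071. Of the 14, 5 (35.7%) were lower on every treated array than on any untreated one, against 6.47% of all genes. These were HSPA5, PDIA3, PDIA4, PDIA6 and MANF. The median was -0.0747 without the 4 arrays numbered 3.

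HSPA5 had 11.68, 11.80 and 11.35 in treated 22RV1, against 11.90, 11.83 and 11.87 in untreated 22RV1. The treated array numbered 3 was the lowest of the 12 arrays. The log2 fold change was -0.26 ± 0.15 (SE, n = 3 per group, limma adjusted p = 0.952). PDIA6, a disulfide isomerase that binds BiP, had 11.07, 11.13 and 11.07 in treated cells and 11.24, 11.24 and 11.28 in untreated cells. The groups did not overlap (log2 fold change -0.16 ± 0.06, limma adjusted p = 0.903). SDF2L1 had 9.54, 9.63 and 9.19 in treated cells and 9.59, 9.65 and 10.05 in untreated cells, which overlapped. Most of its log2 fold change of -0.31 ± 0.13 (limma adjusted p = 0.921) lay between the arrays numbered 3. CRELD2 had 11.51, 11.66 and 11.57 in treated cells and 11.66, 11.75 and 11.90 in untreated cells, meeting at 11.66 (log2 fold change -0.19 ± 0.09, limma adjusted p = 0.921).

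ATF4 and most of its targets had log2 fold changes above 0 in 22RV1. ATF4 had 12.08, 12.02 and 11.98 in treated cells and 11.78, 11.91 and 11.88 in untreated cells, without overlap (log2 fold change 0.17 ± 0.08, limma adjusted p = 0.921). CHAC1, an enzyme that breaks down glutathione, had 6.28, 6.51 and 6.50 in treated cells and 5.91, 6.11 and 5.98 in untreated cells. All treated arrays were higher, and the log2 fold change of 0.43 ± 0.19 had a limma adjusted p of 0.921. All of these CHAC1 values lay below the median probe set (6.66). VLDLR, a lipoprotein receptor, had 5.30, 5.47 and 5.48 in treated cells and 5.13, 5.13 and 4.88 in untreated cells, a log2 fold change of 0.37 ± 0.13 (limma adjusted p = 0.879) at values below the median probe set. DDIT3 had 8.80, 9.11 and 9.13 in treated cells and 8.77, 8.82 and 8.96 in untreated cells, which overlapped (log2 fold change 0.16 ± 0.17).

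As a group, the ATF4 and CHOP targets had a positive log2 fold change in 11 of 13 genes in 22RV1, with a median of 0.06, and 2 of 13 (15.4%) were higher on every treated array, against 5.42% of all genes. XBP1 had a log2 fold change of -0.07 ± 0.09, and ERN1, EIF2AK3 and ATF6 had 0.09, 0.03 and -0.08. HERPUD1, EDEM1 and SEL1L, the degradation genes, lay between -0.09 and -0.02. All 35 intervals stayed within a doubling or a halving, from -0.60 for SDF2L1 to 0.86 for CHAC1. The replicate block called 0 of 35 genes in 22RV1 (0% of all genes).

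**Figure D2:**
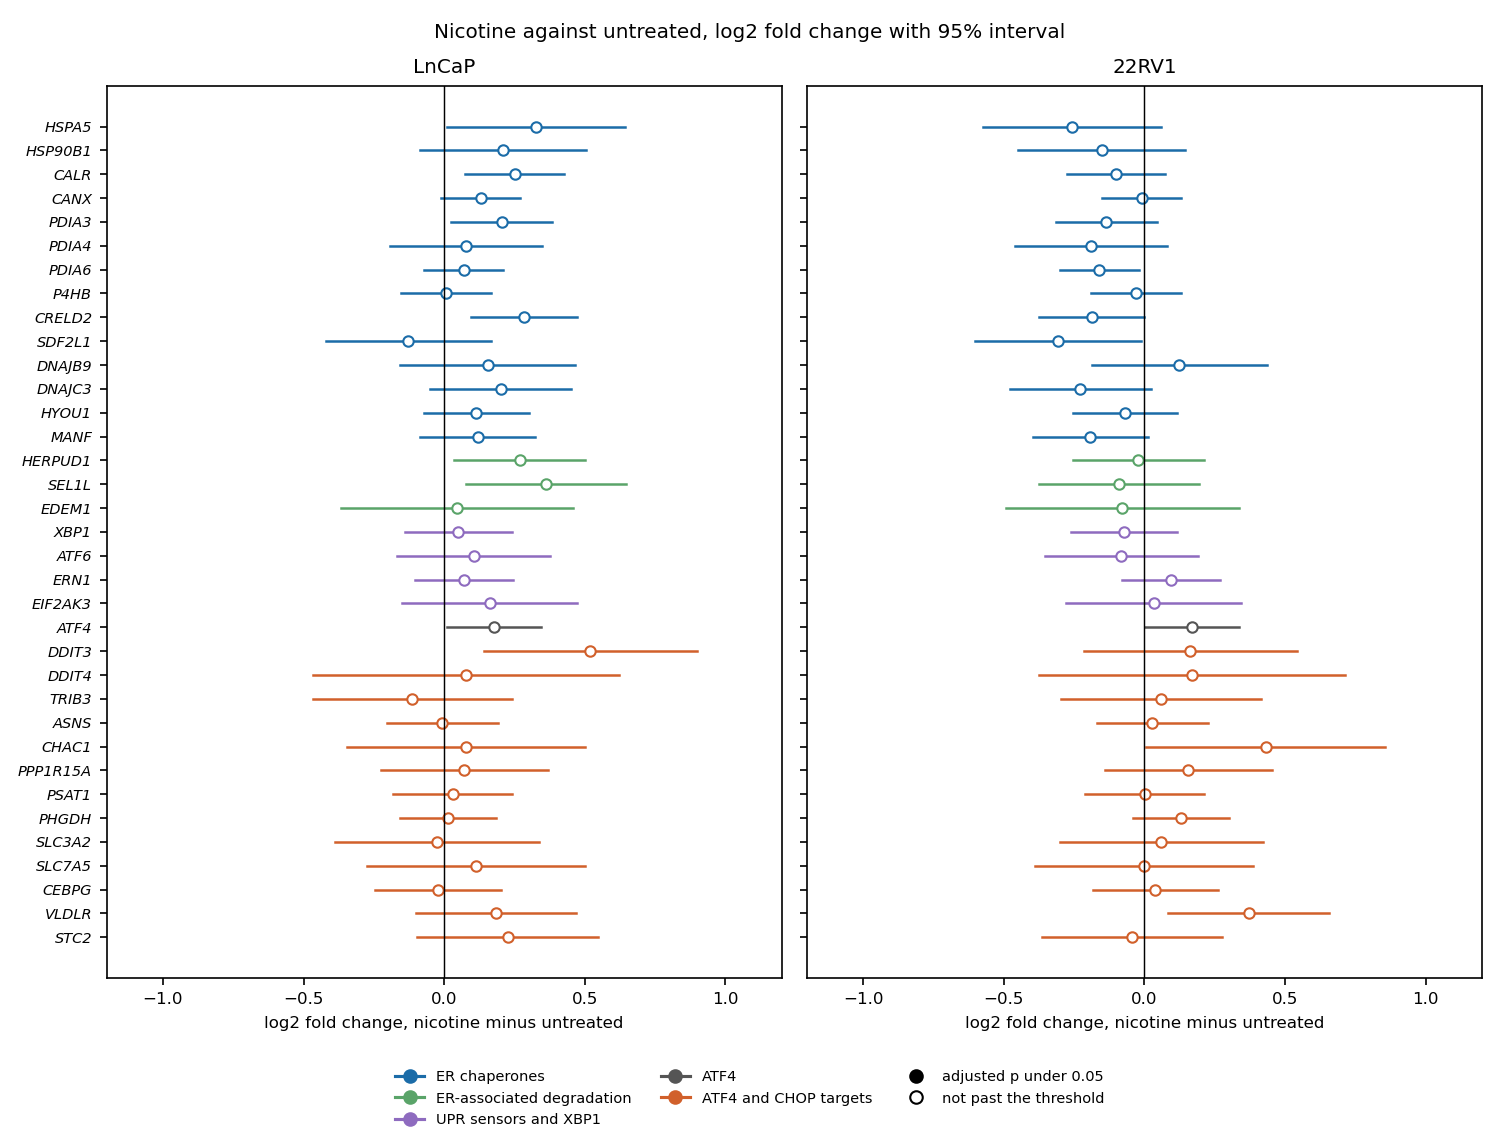
Log2 fold change of nicotine-treated against untreated cells for the 35 genes (points) with the 95% interval (lines), in LnCaP (left) and 22RV1 (right), coloured by gene group; open points did not pass the threshold. All points are open. The chaperones lie mostly right of 0 in LnCaP and left of 0 in 22RV1.

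The estimated difference of the nicotine effect, LnCaP minus 22RV1, was positive in 14 of 14 chaperones (50.1% of all genes were positive). No single gene passed the test of that difference, and the estimates ran from 0.03 for DNAJB9 to 0.58 for HSPA5. Chaperones moved together on single arrays, so such counts, here and within each line, are not 14 separate observations. In 22RV1, the array numbered 3 was higher than the mean of the others in 13 of 14 chaperones in untreated cells. It was lower in 11 of 14 in treated cells. The median over chaperones was 0.29, against 0.00016 over all genes, and it was 0.18 without the 4 arrays numbered 3. In the limma interaction, 0 of 35 genes were called (0% of all genes), and 8 of 35 had an unadjusted p under 0.05. With the replicate block 0 of 35 were called, where 0.159% of all genes were. This difference is built from the same arrays as the effects within each line. CRELD2 had the smallest adjusted p, with a difference of 0.47 ± 0.12 (SE, limma adjusted p = 0.678). HSPA5 differed by 0.58 ± 0.21 (limma adjusted p = 0.710) and DNAJC3, an ER co-chaperone that inhibits PERK, by 0.43 ± 0.16 (limma adjusted p = 0.742). CALR, PDIA3 and PDIA6 differed by 0.35, 0.34 and 0.23. The difference was not confined to chaperones. The 3 genes of ER-associated degradation were positive too, with 0.45 for SEL1L, 0.29 for HERPUD1 and 0.12 for EDEM1. The targets of ATF4 and CHOP had a positive difference in 4 of 13 genes, with a median of -0.08. That median was -0.15 without treated LnCaP replicate 3 and 0.01 without untreated LnCaP replicate 3. ATF4 itself had 0.01 ± 0.11.

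On average over both lines, the 3 largest log2 fold changes were those of DDIT3, VLDLR and CHAC1. With limma, 0 of 35 genes were called (0.376% of all genes) and 4 had an unadjusted p under 0.05, these being ATF4, DDIT3, VLDLR and SDF2L1. ATF4 had an average log2 fold change of 0.17 ± 0.05 (SE, limma adjusted p = 0.218), DDIT3 of 0.34 ± 0.12 (limma adjusted p = 0.290) and VLDLR of 0.28 ± 0.09 (limma adjusted p = 0.253). SDF2L1 had -0.22 ± 0.10 (limma adjusted p = 0.410), CHAC1 0.25 ± 0.14 and HERPUD1 0.12 ± 0.08. With the replicate block DDIT3 alone was called (adjusted p = 0.0437), 1 of 35 genes against 3.31% of all genes. HSPA5, at 0.03 ± 0.10, and XBP1, at -0.01 ± 0.06, were near 0 and changed sign when single arrays were left out.

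Differences between same-numbered arrays showed how these shifts were spread. In LnCaP the median difference over chaperones was 0.232, 0.00784 and 0.154 for replicates 1, 2 and 3, with 13, 7 and 12 of 14 genes positive. In 22RV1 it was -0.0851, -0.0217 and -0.269, with 1, 5 and 1 of 14 genes positive. Pair 2 showed the smallest shift in both lines. Over all genes, 5578, 6032 and 5931 of 11963 were positive in LnCaP, and 5997, 5840 and 5652 in 22RV1. The medians over all genes lay between -0.0150 and 0.00203. The median over ATF4 and CHOP targets was 0.0546, -0.0230 and 0.0152 in LnCaP and 0.0723, 0.130 and -0.00661 in 22RV1, values on both sides of 0 in each line.

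ATF4, DDIT3 and ERN1 were higher in all 6 pairs, which is 8.57% of the 35 genes against 4.82% of all genes. For DDIT3 the differences were 0.463, 0.278 and 0.817 in LnCaP and 0.0222, 0.294 and 0.173 in 22RV1. CALR, PDIA3, CRELD2 and ATF6 were higher in every LnCaP pair and lower in every 22RV1 pair, 11.4% of the 35 genes against 2.54% of all genes. For CRELD2 the differences were 0.324, 0.253 and 0.275 in LnCaP and -0.150, -0.0886 and -0.326 in 22RV1.

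**Figure D3:**
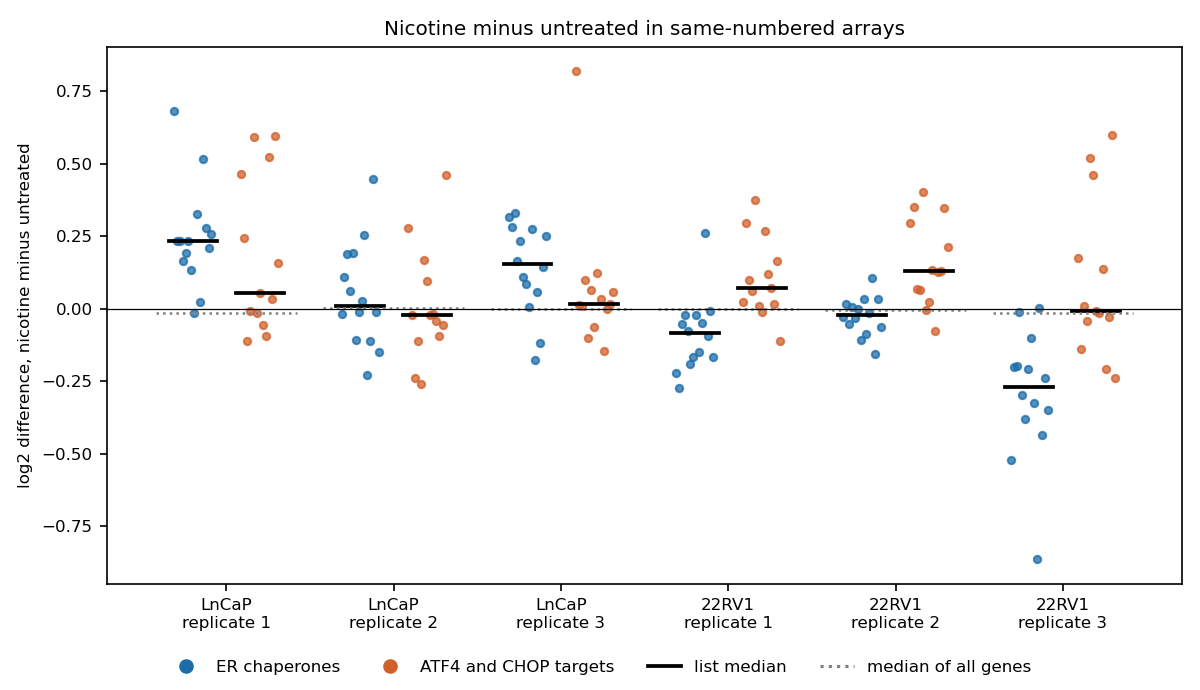
Log2 difference of nicotine-treated minus untreated array within each same-numbered pair; each point is a gene, black bars are medians over the 14 ER chaperones (blue) or the 13 ATF4 and CHOP targets (orange), and dotted lines are medians over all genes. The chaperone medians lie between 0.00784 and 0.232 in LnCaP and between -0.269 and -0.0217 in 22RV1.

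Chaperones with and without the ERSE letters in their promoters had overlapping ranges in both lines. The 5 with a match had a median log2 fold change of 0.25 in LnCaP, from 0.13 to 0.33, and the 8 without had 0.10, from -0.13 to 0.20. In 22RV1 the medians were -0.15 with a match and -0.17 without, over ranges of -0.26 to -0.01 and -0.31 to 0.12. These splits are descriptions of a few genes and were not tested.

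In LnCaP, the arrays numbered 3 had higher values of the ATF4 and CHOP targets than the other arrays of their groups, treated or not. Array 3 minus the mean of arrays 1 and 2 had a median of 0.25 over these targets in treated LnCaP (13 of 13 genes positive) and of 0.32 in untreated LnCaP (12 of 13). In 22RV1 the medians were 0.03 in treated and -0.03 in untreated cells. Over chaperones they were -0.05 in treated and -0.04 in untreated LnCaP, -0.10 in treated and 0.14 in untreated 22RV1. Over all genes the medians were 0.008 in treated and 0.004 in untreated LnCaP, with 6189 and 6085 of 11963 genes positive. They were 0.006 in treated and 0.027 in untreated 22RV1. The labels give no meaning to the number, and its part in the nicotine results beyond the values given here was not tested.

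**Figure D4:**
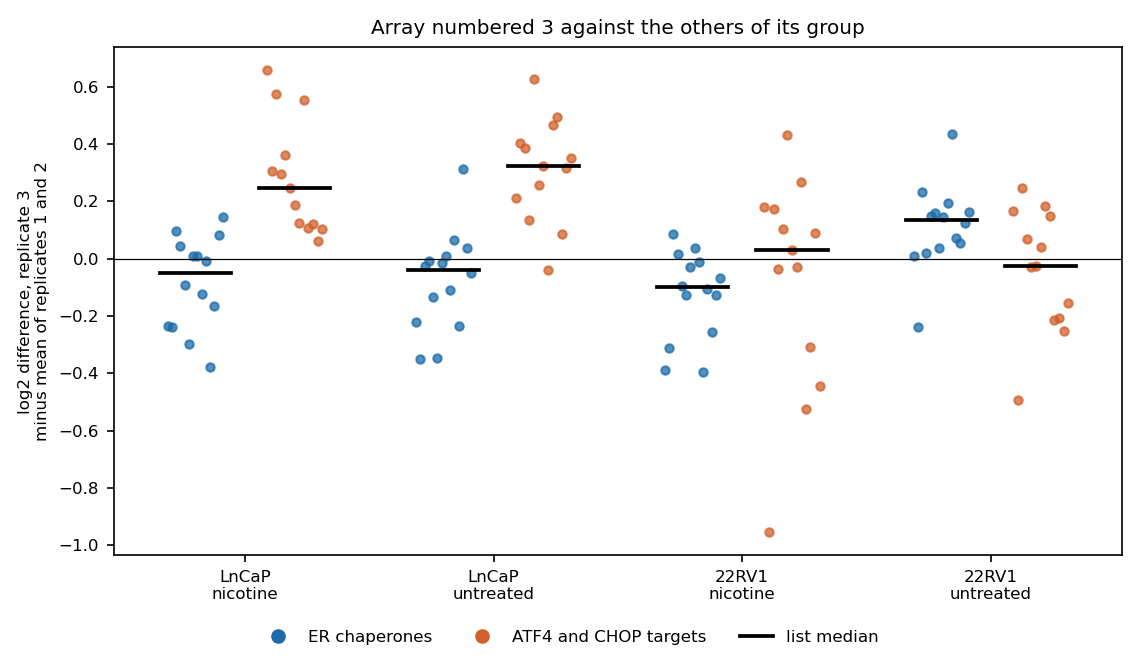
Log2 difference between the array numbered 3 and the mean of the arrays numbered 1 and 2 in each of the 4 groups; points are genes and bars are medians of the 14 ER chaperones (blue) and the 13 ATF4 and CHOP targets (orange). The targets are raised on array 3 in both LnCaP groups, with medians of 0.25 and 0.32.

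More of these genes passed the threshold between the lines. Between untreated LnCaP and untreated 22RV1 cells, limma called 23 of 35 genes (65.7%), 14 higher and 9 lower in LnCaP, where 47.8% of all genes were called, 25.4% higher and 22.4% lower. The untreated arrays of this comparison also enter the nicotine effects above. The chaperones were on balance lower and the ATF4 and CHOP targets mixed with large differences on both sides. Medians were -0.25 for chaperones and 0.69 for ATF4 and CHOP targets, against 0.05 over all genes. The chaperone median was -0.15 without the 4 arrays numbered 3.

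Of the 14 chaperones, 2 (14.3%) were higher in LnCaP, against 25.4% of all genes, and 6 were lower, against 22.4%. Together 57.1% were called, where 47.8% of all genes were. CRELD2 had 10.45, 10.41 and 10.32 in untreated LnCaP, against 11.66, 11.75 and 11.90 in untreated 22RV1, a log2 fold change of -1.38 ± 0.09 (SE, n = 3 per group, limma adjusted p = 8.15e-08). PDIA4, a disulfide isomerase, had 10.23, 10.45 and 9.99 in LnCaP, against 10.90, 10.83 and 11.02 in 22RV1 (log2 fold change -0.69 ± 0.12). Its dimmer probe set differed by only -0.02. DNAJC3 had 6.40, 6.26 and 6.65 in LnCaP, against 7.15, 7.01 and 7.14 in 22RV1 (-0.66 ± 0.11). The groups were separate in each of these genes.

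HSP90B1 and MANF, a secreted ER stress factor, were lower, with a log2 fold change of -0.59 each, as was CANX, the membrane lectin calnexin, with -0.39. On the other side, P4HB, a disulfide isomerase, had 12.26, 12.36 and 12.32 in LnCaP and 11.81, 11.83 and 11.96 in 22RV1 (0.45 ± 0.07, limma adjusted p = 0.000273), and PDIA3 was higher by 0.30. HSPA5, with values given above, overlapped between the lines and did not pass (-0.20 ± 0.15, limma adjusted p = 0.291). CALR had -0.18 and SDF2L1 -0.30, and neither passed although their arrays did not overlap. A dimmer CALR probe set was called lower (-0.29, limma adjusted p = 0.00851).

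All 4 genes for the sensors and XBP1 were higher in LnCaP. EIF2AK3 had 8.13, 8.44 and 8.15 in LnCaP, against 7.54, 7.42 and 7.44 in 22RV1 (log2 fold change 0.77 ± 0.14, limma adjusted p = 0.000698). XBP1 had 9.62, 9.78 and 9.58 in LnCaP, against 9.33, 9.28 and 9.25 in 22RV1 (0.37 ± 0.09). ATF6 was higher by 0.41 and ERN1 by 0.26. The call for ATF6 was lost without untreated LnCaP replicate 1 or 2 or untreated 22RV1 replicate 3, where its adjusted p reached 0.0604, 0.0683 and 0.0694 in limma. It was also lost with the mean of its probe sets (log2 fold change 0.28, limma adjusted p = 0.123), the dimmer of which differed by 0.16 (limma adjusted p = 0.537). ERN1, whose values lay below the median probe set, was not called without untreated LnCaP replicate 1, without untreated 22RV1 replicate 3 or without the 4 arrays numbered 3. EDEM1, a lectin that hands glycoproteins to degradation, was higher by 0.59 ± 0.19. Its call was lost without untreated LnCaP replicate 3 (limma adjusted p = 0.0976) or untreated 22RV1 replicate 1 (0.0835) or 2 (0.0606). SEL1L had 0.00 by its brightest probe set, while 2 of its dimmer probe sets were higher in LnCaP by 0.63 and 0.79.

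ATF4 had nearly equal values, 11.77, 11.94 and 11.84 in LnCaP and 11.78, 11.91 and 11.88 in 22RV1 (log2 fold change -0.01 ± 0.08, 95% interval -0.17 to 0.16). Of its targets 7 of 13 were higher in LnCaP, against 25.4% of all genes, and 3 of 13 (23.1%) were lower, close to the 22.4% of all genes. DDIT4, an inhibitor of mTORC1 signalling, had 11.03, 11.29 and 11.56 in LnCaP, against 9.21, 9.43 and 8.83 in 22RV1, a log2 fold change of 2.14 ± 0.25 (limma adjusted p = 1.74e-05). STC2 had 8.34, 8.18 and 8.61 in LnCaP and 6.72, 6.74 and 6.58 in 22RV1 (1.70 ± 0.15). CHAC1 had 7.15, 7.73 and 8.06 in LnCaP and 5.91, 6.11 and 5.98 in 22RV1 (1.64 ± 0.19). No array of one line reached the range of the other in these genes. The CHAC1 values in 22RV1 lay below the median probe set, near the fibroblast gene DCN there (mean 5.83). The size of the CHAC1 difference is thus uncertain. VLDLR was higher by 1.41, but its untreated 22RV1 values, 4.88 to 5.13, were at the level of the leukocyte marker CD3E there (mean 5.17), so the size of that difference is uncertain. PHGDH was higher by 1.10, CEBPG, a dimer partner of ATF4, by 0.87 and PSAT1 by 0.69.

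SLC7A5, the amino acid transporter subunit LAT1, had 6.67, 7.13 and 7.39 in LnCaP, against 9.65, 9.68 and 9.45 in 22RV1. This was the largest difference of the 35 genes, a log2 fold change of -2.53 ± 0.18 (limma adjusted p = 2.24e-07). Its partner subunit SLC3A2 had 8.41, 8.40 and 8.87 in LnCaP and 8.14, 8.19 and 8.31 in 22RV1, a value of 0.35 ± 0.17 that did not pass (limma adjusted p = 0.109). PPP1R15A, which directs the phosphatase that reverses eIF2 phosphorylation, had 6.51, 6.61 and 6.82 in LnCaP and 8.07, 7.96 and 7.99 in 22RV1 (-1.36 ± 0.14). DDIT3 had 8.04, 8.35 and 8.41 in LnCaP and 8.77, 8.82 and 8.96 in 22RV1 (-0.58 ± 0.17, limma adjusted p = 0.0144), and its call was lost without untreated LnCaP replicate 1 (limma adjusted p = 0.0649). TRIB3 and ASNS, at -0.26 and -0.01, were not called.

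**Figure D5:**
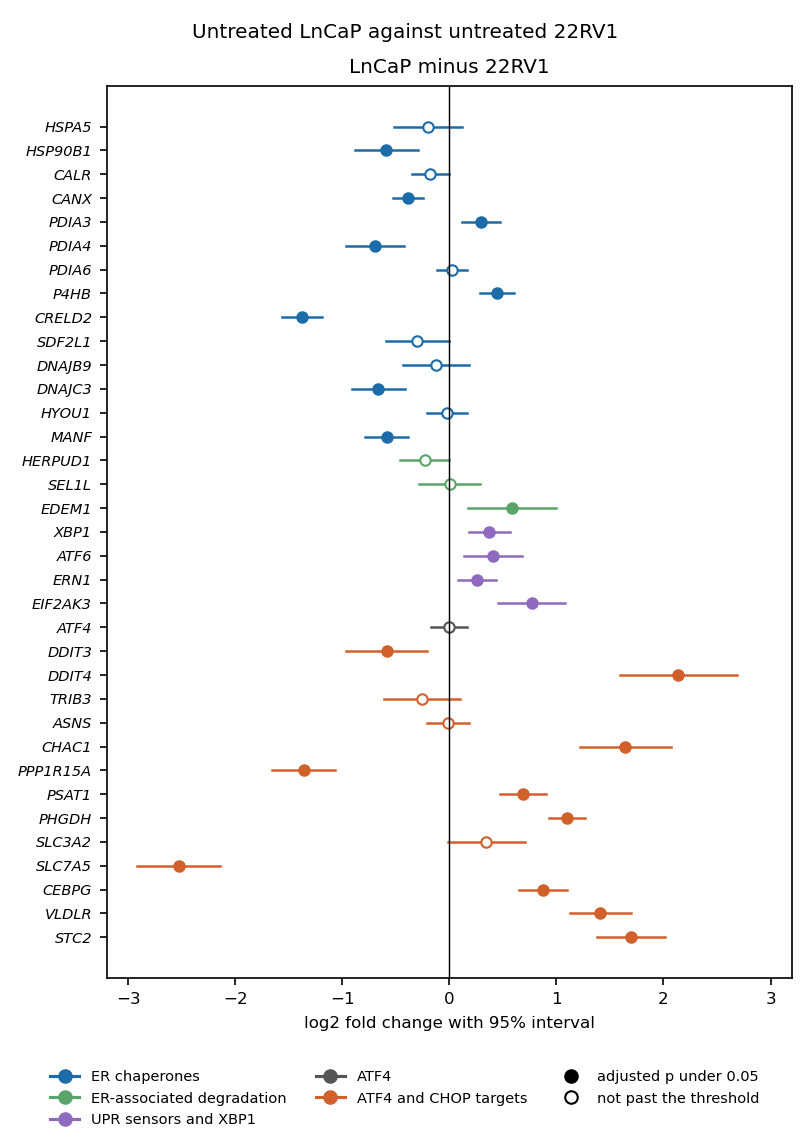
Log2 fold change of untreated LnCaP against untreated 22RV1 for the 35 genes (points) with the 95% interval (lines), coloured by gene group; filled points passed the threshold. Values run from -2.53 for SLC7A5 to 2.14 for DDIT4, and all 4 points of the sensors and XBP1 are filled and right of 0.

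Other genes of these pathways were read from 7 further lists, of which 97 of 119 genes were measured. After nicotine, limma called 0 of 97 in LnCaP, in 22RV1, on average and for the difference, where 10, 4, 12 and 4 had an unadjusted p under 0.05. With the replicate block the share of these genes called was below that of all genes in LnCaP and on average. It was 0 of 97 in 22RV1 (0% of all genes) and 0 of 97 for the difference (0.159% of all genes). The block called 2 of 97 in LnCaP (5.39% of all genes), the stress-induced chromatin protein NUPR1 (0.32, adjusted p = 0.0330) and ATF5, a factor related to ATF4 (-0.37, adjusted p = 0.0439). It called 2 of 97 for the average (3.31% of all genes), VEGFA, a growth factor of blood vessels (0.32, adjusted p = 0.0340), and EIF2B3, a subunit of the eIF2 exchange factor (-0.30, adjusted p = 0.0488). The smallest p in LnCaP was that of KLHL24, which had a log2 fold change of 0.59 ± 0.17 (limma adjusted p = 0.140). Its list of 22 other ATF4 pathway genes was negative in 14 in LnCaP (median -0.04) and in 14 on average (median -0.02). In 22RV1 that list was positive in 16 (median 0.02). FKBP11, a peptidyl-prolyl isomerase of the ER, had -0.35 in LnCaP and 0.39 in 22RV1, opposite in sign to most chaperones above. It was chosen for its small p, and its list of 15 other ER folding factors had a positive log2 fold change in 8 genes in LnCaP (median 0.01) and in 7 in 22RV1 (median -0.03). For FKBP11 the difference of the nicotine effect, LnCaP minus 22RV1, was -0.73 ± 0.18 and did not pass (limma adjusted p = 0.659).

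Among the 10 cytosolic heat shock genes, which answer to misfolded protein outside the ER, limma called 0 after nicotine, with 0 at an unadjusted p under 0.05 in LnCaP and 2 in 22RV1. DNAJB1, an HSP40 co-chaperone, had 0.41 ± 0.11 in 22RV1 (limma adjusted p = 0.829) and 0.15 ± 0.11 in LnCaP. Its average of 0.28 did not pass in limma (adjusted p = 0.180). The replicate block called that average (adjusted p = 0.0331), 1 of 10 genes against 3.31% of all genes. Between the untreated lines 45 of the 97 pathway genes were higher in LnCaP (25.4% of all genes were) and 19 of 97 were lower, a share no larger than the 22.4% of all genes. GDF15, a secreted stress cytokine, was higher by 4.06 ± 0.21 and the BiP exchange factor SIL1 by 1.73 ± 0.09. Of the aminoacyl-tRNA synthetases, which load amino acids onto tRNA, 8 of 11 were higher and 0 lower (25.4% and 22.4% of all genes), led by TARS1 at 1.09. The amino acid transporters SLC1A4 (-1.16) and SLC38A2 (-0.98) and the degradation gene EDEM3 (-1.38) were lower.

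Other probe sets of the same genes gave a check on the values used. The 11 genes with several probe sets had 17 others, and these shared the sign of the one used in 14 of 17 cases for nicotine in LnCaP and in 12 of 17 in 22RV1. In a fit of all probe sets, the dimmer HSP90B1 probe set had a log2 fold change of 0.40 in LnCaP (limma adjusted p = 0.0528) and a dimmer CALR probe set one of 0.55 (limma adjusted p = 0.0907), both above the brighter one used. The other STC2 probe set had 0.38 in 22RV1, against -0.04 for the one used. Between the untreated lines all 17 shared the sign, and 10 of them were called, given here without the share of all probe sets. The shared sign says little for SEL1L and PDIA6, whose used probe sets differed by 0.00 and 0.02. Dimmer probe sets of SEL1L (0.63 and 0.79), CALR (-0.29) and PDIA6 (0.31, limma adjusted p = 0.0451) were called although the ones used were not. The probe sets used for HSP90B1, CALR and PDIA6 are of the Affymetrix kind whose probes may also match related transcripts.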

How the data were processed

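Biotin-labelled cRNA from 12 samples was hybridised to single-colour Affymetrix arrays, per the labels' protocols. The authors deposited log2 values for 22277 probe sets; the normalization is not given in the sources used here, and array medians lay between 6.61 and 6.71. The values were used as deposited. Gene names came from the platform annotation (19070 with 1 symbol, 1043 with several and 2164 unlisted), which left 11963 genes.

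All arrays were fitted by group means with limma 3.58.1 in R 4.3.3 (lmFit, eBayes, two-sided, no covariate). P-values were adjusted over all genes within a comparison by the Benjamini-Hochberg method and called under 0.05. Precision is limited by the number of arrays, with a median SE of 0.11 for a nicotine effect. The fit was tested on simulated data. List medians are descriptions with no test.

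The replicate numbers in the labels were checked for pairing. Within a line, deviations of same-numbered arrays correlated at 0.371, 0.225 and 0.599 in LnCaP and 0.465, 0.454 and 0.640 in 22RV1, all above 0.1, so a fit with 6 blocks, 1 per line and number, stands beside results it changes. Untreated LnCaP replicate 2 correlated more with treated replicate 1 (0.270) than with treated replicate 2.

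The genes, lists and tests were chosen with earlier results of these data known. Named genes were those called (up to 12 on each side) or, with fewer than 6 called, the smallest p up to 6, and always HSPA5, XBP1, ATF4 and DDIT3. Of each other list up to 3 called genes on each side were eligible, or the smallest p. Other genes were named after their values were seen. Alternatives covered single arrays left out, the arrays numbered 3, the block, single-line fits, array weights, normalization, dim genes, probe sets and the variance prior.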

Additional observations from a re-analysis of the deposited data

Results flagged for a closer look

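The median nicotine shift of the ER chaperones had opposite signs in the 2 lines. In every LnCaP pair of same-numbered arrays their median nicotine shift was above 0, from 0.00784 to 0.232, and in every 22RV1 pair it was below 0, from -0.269 to -0.0217. The difference of these medians between the lines was not tested. In LnCaP pair 2 only 7 of 14 chaperones were positive. Gene by gene, 3 of 14 chaperones (CALR, PDIA3 and CRELD2) and the sensor gene ATF6 were higher in each LnCaP pair and lower in each 22RV1 pair, where 2.54% of all genes were. The other 11 chaperones were not, and by group means SDF2L1 was negative (-0.13 in LnCaP, -0.31 in 22RV1) and DNAJB9 positive (0.15 and 0.12) in both lines. For CALR, PDIA3, CRELD2 and ATF6 the differences of the nicotine effect, LnCaP minus 22RV1, were 0.35, 0.34, 0.47 and 0.19 on the log2 scale. None of them passed the limma test of the difference.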

How the results depend on the processing

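For nicotine in LnCaP, in 22RV1, on average and for the difference, none of the stress response genes was called under any alternative run except the replicate block, which called 2 in LnCaP and 1 on average. Between the untreated lines, 20 to 24 genes were called with single arrays left out. The share of all genes in those runs is not given, so no excess can be read from that range. In the main fit 47.8% of all genes were called. The replicate numbers did not pair the lines (r of same-numbered untreated arrays 0.0815, 0.150 and 0.253), and a block by number called 25 of 35 genes there against 23 (over all genes, 3363 higher and 2929 lower). With single arrays left out, the chaperone median lay between 0.115 and 0.198 in LnCaP, -0.196 and -0.129 in 22RV1, -0.00646 and 0.0465 on average, 0.234 and 0.336 for the difference, and -0.325 and -0.176 between lines. The target median lay between -0.0273 and 0.158, 0.0483 and 0.110, 0.0236 and 0.137, -0.155 and 0.0102, and 0.579 and 0.759 in the same order. Without the 4 arrays numbered 3 the chaperone median was -0.0747 in 22RV1, 0.183 for the difference and -0.150 between lines. Keeping only genes above the median probe set gave a target median of 0.517 between lines. Signs of named genes turned only for values near 0. With single arrays left out, the average effect lay between -0.0177 and 0.107 for HSPA5 and between -0.0339 and 0.0207 for XBP1, the ATF4 difference between -0.0354 and 0.0523, and ATF4 between lines from -0.0496 to 0.0325. XBP1 in LnCaP was -0.0126 without the arrays numbered 3. On average, XBP1 was 0.000212 after quantile normalization. The ATF4 difference was -0.0725 without the arrays numbered 3 and -0.00871 after quantile normalization, and ATF4 between lines was 0.00887 without the arrays numbered 3 and 0.0557 after median centring. The fits of single lines could not be run for the average and the difference. The number of arrays and the median SE of 0.11 limit how small a change could be called.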
